A study of Mus musculus with 6 samples.

Results

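Transcripts of 29 genes of Schwann cells and of glia-like sustentacular cells were followed in the carotid body and the adrenal medulla of adult mice. They were picked by name as genes of myelinating Schwann cells, non-myelinating Schwann cells and glia-like type II cells, and they are 29 of the 26728 entries of the deposited expression table, each with 1 entry. The study holds 3 carotid body libraries and 3 adrenal medulla libraries from untreated adult C57/BL6 mice. Each library is 1 pool from 10 mice, made of 18 carotid bodies or of 10 adrenal medullas, so n counts pools. Nothing in the labels says that cells were sorted, and the values are those of whole dissected tissue, in which fewer cells of a type and less RNA per cell cannot be told apart.

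Schwann cells wrap axons of peripheral nerves, either in compact myelin around a large axon or, as non-myelinating cells, around bundles of thin axons. The transcription factor SOX10 is needed throughout this lineage, neuregulin from axons drives it through the receptors ERBB2 and ERBB3, and EGR2 turns on the genes of myelin. In the carotid body, sustentacular or type II cells enclose the oxygen-sensing glomus cells. They carry glial proteins such as GFAP and S100B, and in adult rodents they can act as progenitors that make new glomus cells. The adrenal medulla has sustentacular cells and nerve fibres of its own, among chromaffin cells.

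Levels are RPKM, reads scaled to mRNA length and library size, so levels of different genes can be compared roughly. The RNA was amplified before library construction, and whether this shifted genes against each other was not tested. The libraries held 13266225 to 16445925 reads. Of the 29 genes, 27 reached 1 RPKM in at least 3 libraries and were tested, and Mag and Erbb3 did not. In the 16 tested genes of which all 3 adrenal medulla libraries also reached 1 RPKM, the filter did not depend on the carotid body. The other 11 passed through the carotid body libraries, all 3 of which reached 1 RPKM while not all 3 adrenal medulla libraries did. Passing that way favours a difference toward the carotid body, so calls of these genes are not independent of the filter. Log2 differences give carotid body minus adrenal medulla on the log2(RPKM + 1) scale, and are too small for genes of low level. A gene was called where its limma p, adjusted by Benjamini and Hochberg over all genes tested, was below 0.05.

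The carotid body carried more of nearly all of these transcripts. Of the 27 tested genes, 26 had a called difference toward the carotid body, 0 toward the adrenal medulla, and Nrg1 had none. Over all 13357 genes tested, 14.2% were called toward the carotid body and 7.73% toward the adrenal medulla. Among the 16 genes that did not pass through the carotid body alone, 15 were called. The share called among all genes that passed in the same way is not given here. The median log2 difference of the 27 genes was 1.91, against 0.02 for all genes tested. The 27 include the 11 that passed through the carotid body, so this median is not independent of the filter. All 3 carotid body libraries lay above all 3 adrenal medulla libraries for 27 of the 29 genes, a pattern found in 22.3% of all genes tested. These genes were chosen with earlier results of the same libraries known, so their count and their median are a description.

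**Figure D1:**
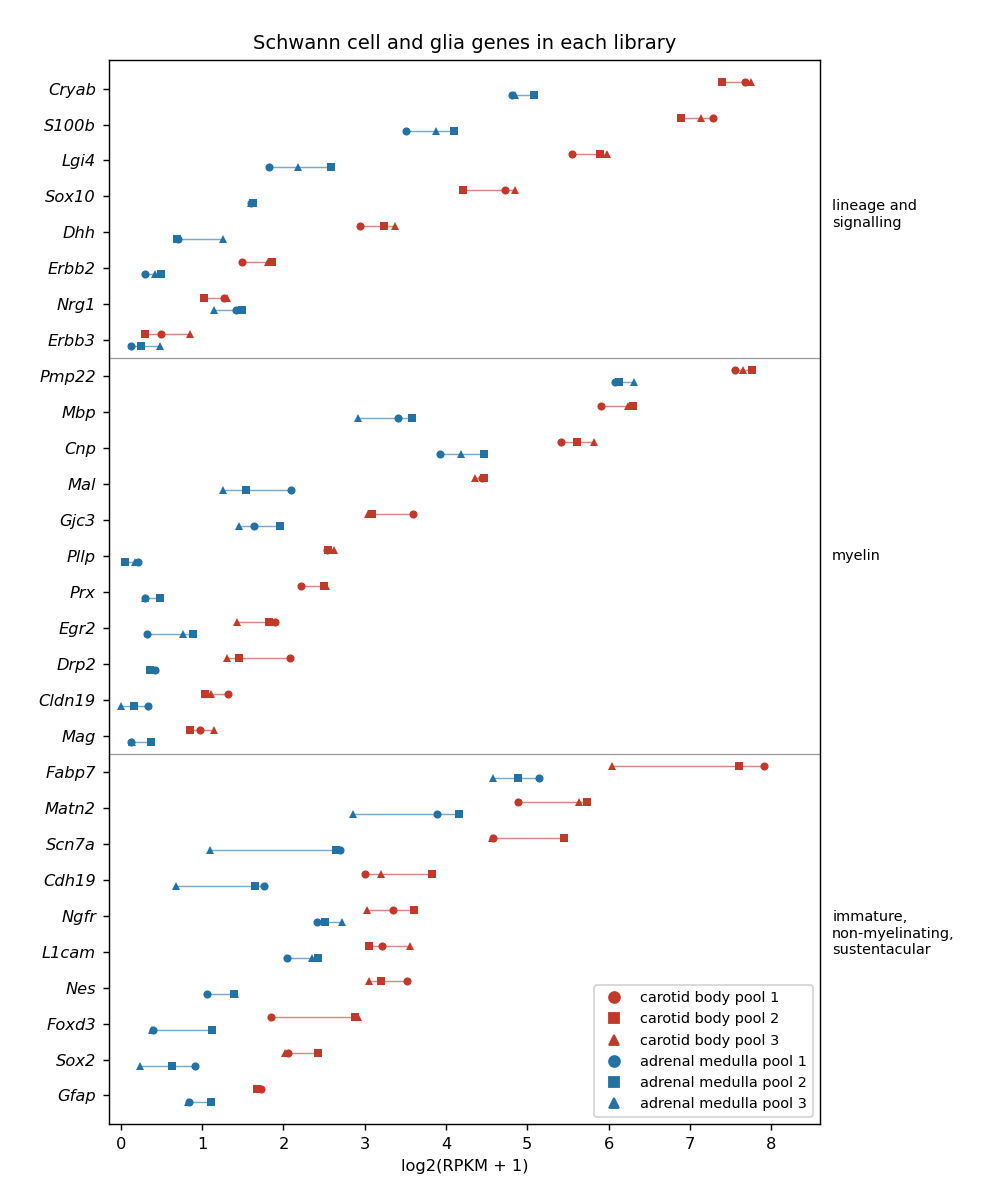
Levels of the 29 genes as log2(RPKM + 1), with a point per library, circles, squares and triangles for pools 1, 2 and 3, carotid body in red above adrenal medulla in blue, ordered by carotid body level within each class. The points of the 2 tissues overlap for Nrg1 and Erbb3 and are apart for the other 27 genes.

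Sox10, the transcription factor of the whole lineage, was at 25.4, 17.5 and 27.7 RPKM in carotid body pools 1, 2 and 3, and at 2.03, 2.09 and 2.04 RPKM in adrenal medulla pools 1, 2 and 3. Every carotid body pool was far above the adrenal medulla pools, which were almost equal to each other. The log2 difference was 2.98 ± 0.23 (SE; limma adjusted p = 5.70e-05). Sox2, a factor of immature Schwann cells and glial progenitors, was at 3.14, 4.36 and 3.06 RPKM in the carotid body and at 0.878, 0.542 and 0.173 RPKM in the adrenal medulla (log2 1.58, adjusted p = 0.00117). Foxd3, a neural crest factor kept in early glia, was at 2.58, 6.35 and 6.55 RPKM in the carotid body and at 0.314, 1.18 and 0.307 RPKM in the adrenal medulla (log2 1.91, adjusted p = 0.00366). Both stood well below Sox10 in every carotid body pool, and Sox2 overlaps the long non-coding Sox2ot, at 3.62 to 5.52 RPKM in the carotid body and 1.02 to 1.56 RPKM in the adrenal medulla. Egr2, the activator of myelin genes, was at 2.71, 2.54 and 1.69 RPKM in the carotid body and at 0.250, 0.849 and 0.696 RPKM in the adrenal medulla (log2 1.06, adjusted p = 0.00740). Sox2 and Egr2 stayed below 1 RPKM in all 3 adrenal medulla libraries, with 55 and 80 reads over these libraries. Limma-voom on the reads recovered from RPKM gave larger log2 differences for these low factors, at 2.98 for Sox2, 3.26 for Foxd3 and 2.05 for Egr2.

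The calcium-binding protein gene S100b, a general marker of Schwann and sustentacular cells, was at 155, 117 and 139 RPKM in the carotid body and at 10.3, 16.1 and 13.7 RPKM in the adrenal medulla. Its log2 difference was 3.27 ± 0.24 (SE; adjusted p = 3.79e-05). Lgi4, a secreted Schwann cell protein needed for myelination, had the largest difference of the 27 tested genes on the log2(RPKM + 1) scale, while by limma-voom Pllp (5.46) and Cldn19 (4.38) exceeded it (3.94). It was at 45.6, 58.4 and 62.1 RPKM in the carotid body and at 2.55, 4.98 and 3.53 RPKM in the adrenal medulla, a log2 difference of 3.61 ± 0.26 (SE; adjusted p = 3.54e-05). Lgi4 overlaps Fxyd3 in the GRCm38.p6 RefSeq table, and Fxyd3 was at 45.0, 36.5 and 46.7 RPKM in the carotid body and at 3.98, 3.74 and 3.83 RPKM in the adrenal medulla. The labels do not say whether strand was kept, so reads of the overlap cannot be assigned to either gene. Dhh, the hedgehog ligand by which Schwann cells shape the perineurium, averaged 8.16 ± 1.37 RPKM in the carotid body and 0.874 ± 0.437 RPKM in the adrenal medulla (SD over 3 pools each; log2 2.30, adjusted p = 1.97e-04). Cryab, a small heat shock protein found in myelinating Schwann cells and also in muscle, averaged 195 ± 25.0 RPKM in the carotid body and 29.2 ± 3.06 RPKM in the adrenal medulla (log2 2.69, adjusted p = 6.13e-05). Cryab overlaps Hspb2, which ranged over 13.8 to 26.4 RPKM in the carotid body and 2.54 to 2.94 RPKM in the adrenal medulla. It also overlaps 2310030G06Rik, which ran the other way, at 8.40, 10.1 and 7.04 RPKM in the carotid body and at 29.4, 30.9 and 12.4 RPKM in the adrenal medulla. Part of the Cryab reads therefore cannot be assigned either.

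Nrg1, Erbb2 and Erbb3 were low in both tissues, and Nrg1 was the tested gene without a call. Nrg1, the axonal growth factor of Schwann cells, was at 1.41, 1.04 and 1.47 RPKM in the carotid body and at 1.66, 1.80 and 1.21 RPKM in the adrenal medulla. The pools of the tissues overlapped, and the log2 difference was -0.15 ± 0.18 (SE; adjusted p = 0.638). The table lists Nrg1 as 1 mRNA of 2.10 kb, so its isoforms cannot be told apart. Erbb2, the signalling partner of the receptor, was at 1.82, 2.64 and 2.51 RPKM in the carotid body and at 0.223, 0.406 and 0.341 RPKM in the adrenal medulla (log2 1.32, or 2.83 by limma-voom; adjusted p = 6.51e-04). It overlaps Mien1, a far more abundant gene at 153 to 193 RPKM in the carotid body and 135 to 249 RPKM in the adrenal medulla. Erbb3, the receptor that binds neuregulin, had 0.411, 0.225 and 0.799 RPKM in the carotid body and 0.0926, 0.192 and 0.393 RPKM in the adrenal medulla, from 86 and 42 reads in all. It was therefore the lowest of the 29 genes in the carotid body, and its pools overlapped. Of 16 further genes tested in neuregulin and ErbB signalling, 7 were called toward the carotid body, 0 toward the adrenal medulla and 9 in neither direction, with a median log2 difference of 0.59. With both carotid body 2 and adrenal medulla 3 left out, 2 were called toward the adrenal medulla. Hbegf, a ligand of the EGF receptor, differed by 2.59, the adaptor gene Gab1 by 2.25 and the ligand gene Tgfa by 1.78.

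Proteins of compact myelin were led by Pmp22, which spans the myelin membrane. It was at 187, 216 and 200 RPKM in the carotid body and at 66.5, 69.0 and 78.1 RPKM in the adrenal medulla (log2 1.48 ± 0.21 SE, adjusted p = 0.00107). Pmp22 was the highest of the 29 genes in both tissues. Mbp, which holds the inner faces of the myelin membrane together, was at 58.8, 77.8 and 74.5 RPKM in the carotid body and at 9.65, 10.9 and 6.52 RPKM in the adrenal medulla. Its log2 difference of 2.85 ± 0.25 (SE; adjusted p = 9.33e-05) was the largest of the myelin class on this scale, but by limma-voom Mbp (2.98) was below Pllp, Cldn19, Prx and Mal (3.32). The Mbp entry joins 8 transcript accessions, so isoforms outside myelin are in the same value. Mal, a lipid raft protein of myelin, was at 20.7, 21.0 and 19.5 RPKM in the carotid body and at 3.25, 1.91 and 1.39 RPKM in the adrenal medulla (log2 2.79, adjusted p = 1.18e-04). Cnp, an enzyme of non-compact myelin, was at 41.8, 47.8 and 55.4 RPKM in the carotid body and at 14.2, 21.2 and 17.2 RPKM in the adrenal medulla (log2 1.42, adjusted p = 0.00241). It overlaps Dnajc7, which ranged over 21.3 to 55.3 RPKM in the carotid body and 33.0 to 62.5 RPKM in the adrenal medulla.

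Most of the low members of the myelin class had few reads in the adrenal medulla. Pllp, the myelin protein plasmolipin, was at 4.82, 4.87 and 5.17 RPKM in the carotid body and at 0.158, 0.0371 and 0.129 RPKM in the adrenal medulla, from 406 and 9 reads in all. Its log2 difference was 2.43 (adjusted p = 2.39e-05), and 5.46 by limma-voom on recovered reads. Prx, the periaxin gene of myelinating Schwann cells, averaged 4.34 ± 0.619 RPKM in the carotid body and 0.286 ± 0.0986 RPKM in the adrenal medulla (log2 2.05, adjusted p = 8.16e-05; 3.94 by limma-voom). Drp2, the partner of periaxin, averaged 2.15 ± 0.935 RPKM in the carotid body and 0.306 ± 0.0313 RPKM in the adrenal medulla (log2 1.23, adjusted p = 0.00342; 2.71 by limma-voom). Cldn19, a tight junction protein of myelin, was at 1.5, 1.05 and 1.15 RPKM in the carotid body and at 0.264, 0.116 and 0 RPKM in the adrenal medulla. A count of 0 reads in adrenal medulla pool 3 allows up to 0.0431 RPKM. Its log2 difference was 0.99 (adjusted p = 0.00201), and 4.38 by limma-voom, from 227 and 22 reads. Gjc3, the connexin of Schwann cells, averaged 8.59 ± 2.17 RPKM in the carotid body and 2.25 ± 0.590 RPKM in the adrenal medulla (log2 1.56, adjusted p = 0.00201). Mag, an adhesion protein on the axon-facing side of myelin, was untested at 0.966, 0.807 and 1.22 RPKM in the carotid body and 0.092, 0.289 and 0.10 RPKM in the adrenal medulla, and its pools did not overlap.

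Of 16 further peripheral myelin genes tested, 10 were called toward the carotid body, 0 toward the adrenal medulla and 6 in neither direction, with a median of 1.68. Ncmap, a myelin membrane protein, differed by 2.88, and Ndrg1, which is mutated in a form of demyelinating neuropathy and responds to hypoxia, by 2.34. Of 10 tested genes of nodes and axon contact, 3 were called toward the carotid body, 1 toward the adrenal medulla and 6 in neither direction. These were the adhesion gene Cadm2 (1.69), the node anchor Ank3 (1.16) and the adhesion gene Cntn1 (1.06), against Nrcam (-1.27). With the pool number as a block, 6 of these genes were higher in the carotid body, and 1 was called with carotid body pool 2 or 3 left out, or with both carotid body 2 and adrenal medulla 3 left out.

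Several markers of immature, non-myelinating and sustentacular cells varied widely from pool to pool. Fabp7, a brain-type fatty acid binding protein of immature glia, was at 240, 194 and 65.0 RPKM in the carotid body and at 34.3, 28.6 and 22.8 RPKM in the adrenal medulla. Carotid body pool 3 was far below the other pools, yet above every adrenal medulla pool (log2 2.32 ± 0.45 SE, adjusted p = 0.00653). Scn7a, a sodium channel relative found in non-myelinating Schwann cells, was at 22.8, 42.6 and 22.6 RPKM in the carotid body and at 5.47, 5.27 and 1.14 RPKM in the adrenal medulla (log2 2.71, adjusted p = 0.00286). Cdh19, a cadherin of Schwann cells and their precursors, was at 7.02, 13.2 and 8.18 RPKM in the carotid body and at 2.39, 2.13 and 0.597 RPKM in the adrenal medulla (log2 1.98, adjusted p = 0.00346). Matn2, a matrix protein made by Schwann cells, was at 28.5, 52.1 and 48.5 RPKM in the carotid body and at 13.9, 16.9 and 6.25 RPKM in the adrenal medulla (log2 1.78, adjusted p = 0.00982). Carotid body pool 2 was the highest and adrenal medulla pool 3 the lowest for these 3 genes and for Sox2. Carotid body pool 2 was also rich in transcripts of adipocyte markers, whose 8 genes summed to 3120 RPKM there, against 248 and 422 RPKM in pools 1 and 3, and whether this bears on the glial values was not tested.

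Nes, the intermediate filament nestin of progenitors and also of vessel walls, was at 10.5, 8.17 and 7.28 RPKM in the carotid body and at 1.08, 1.62 and 1.65 RPKM in the adrenal medulla (log2 1.97, adjusted p = 3.36e-04). Gfap, the filament protein by which type II cells are often stained, was low in both tissues. It was at 2.29, 2.18 and 2.21 RPKM in the carotid body and at 0.790, 1.15 and 0.779 RPKM in the adrenal medulla (log2 0.76, or 1.31 by limma-voom; adjusted p = 0.00992). The neurotrophin receptor gene Ngfr was at 9.22, 11.2 and 7.14 RPKM in the carotid body and at 4.34, 4.71 and 5.57 RPKM in the adrenal medulla (log2 0.78 ± 0.23 SE, adjusted p = 0.0419). Ngfr lost its call with carotid body pool 1 (0.113), 2 (0.143) or 3 (0.0504) left out, or adrenal medulla pool 1 (0.119) or 2 (0.139), each value being an adjusted p of limma. L1cam, an adhesion molecule of axons and non-myelinating Schwann cells, was at 8.25, 7.33 and 10.7 RPKM in the carotid body and at 3.14, 4.37 and 4.12 RPKM in the adrenal medulla (log2 1.00, adjusted p = 0.0140). It missed the threshold with carotid body pool 3 left out (adjusted p = 0.0676). Ngfr, L1cam and Gfap had the smallest differences of the 26 called genes together with Cldn19 on the log2(RPKM + 1) scale. That scale shrinks the difference of a gene as low as Cldn19, which was at 4.38 by limma-voom.

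**Figure D2:**
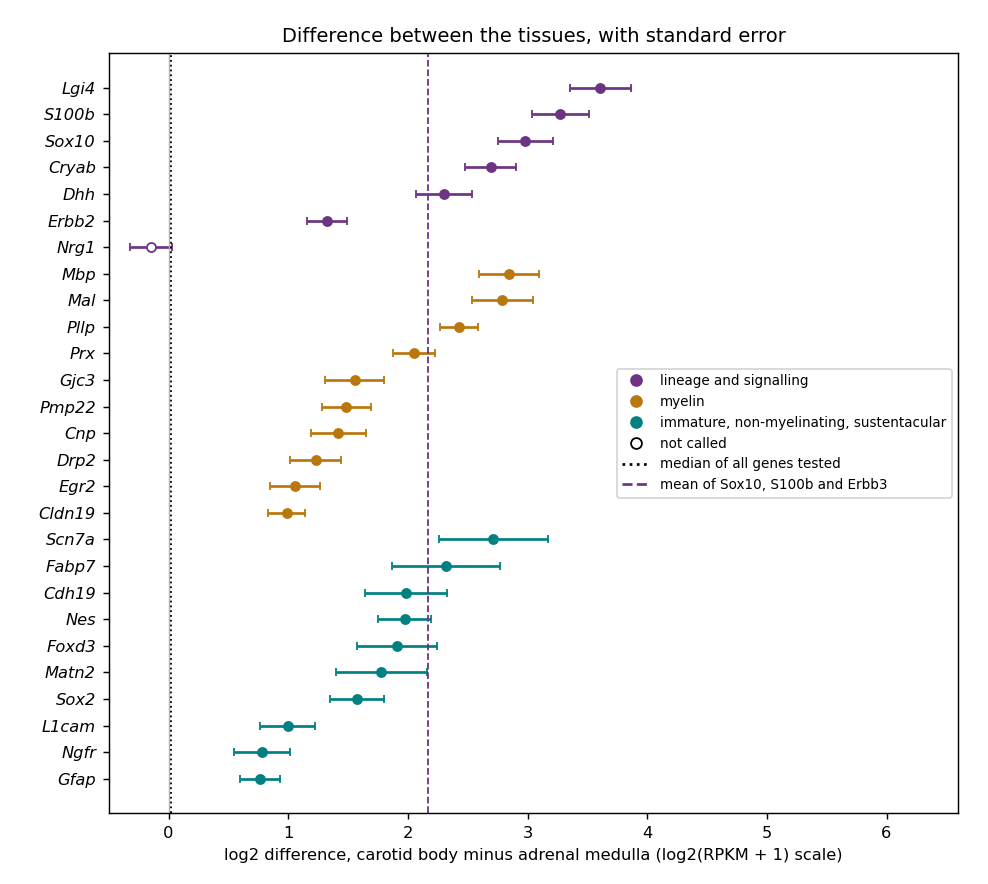
Log2 difference of the 27 tested genes, carotid body minus adrenal medulla on the log2(RPKM + 1) scale, with the standard error, coloured by class. The dotted line is the median of all genes tested, 0.02, and the dashed line the difference of the mean of Sox10, S100b and Erbb3, 2.17; the myelin genes and the immature, non-myelinating or sustentacular genes cover much the same range.

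The myelin genes and the immature, non-myelinating or sustentacular genes did not separate by how far the tissues differed. The 10 tested genes of the myelin class, of 11, ranged from 0.99 to 2.85 with a median log2 difference of 1.52. The 10 genes of the immature, non-myelinating or sustentacular class ranged from 0.76 to 2.71 with a median of 1.84. All 20 were called higher in the carotid body, against 14.2% of all genes tested. Of these, Prx, Cldn19, Pllp, Drp2, Egr2, Sox2, Foxd3, Gfap and Cdh19 had passed the filter through the carotid body libraries. Their calls, and the class medians that include them, are therefore not independent of the filter. The difference of the medians, myelin minus immature, was -0.32, and its sign depended on how low genes were treated, with 0.14 at a pseudocount of 0.1 and 0.38 by limma-voom. With both carotid body 2 and adrenal medulla 3 left out it was 0.18, and with adrenal medulla 3 alone left out -0.02. Averaged over the 11 genes of the myelin class, the level as log2(RPKM + 1) was 3.41 ± 0.03 for carotid bodies and 1.72 ± 0.10 for adrenal medullas (SD, n = 3 pools each). Averaged over the 10 genes of the other class, it was 3.71 ± 0.21 for carotid bodies and 2.03 ± 0.28 for adrenal medullas. The myelin average was the steadier across pools in both tissues on this scale, which narrows the spread of genes of low level. The difference between the classes, myelin minus immature, was -0.29 ± 0.21 for carotid bodies and -0.31 ± 0.19 for adrenal medullas.

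**Figure D3:**
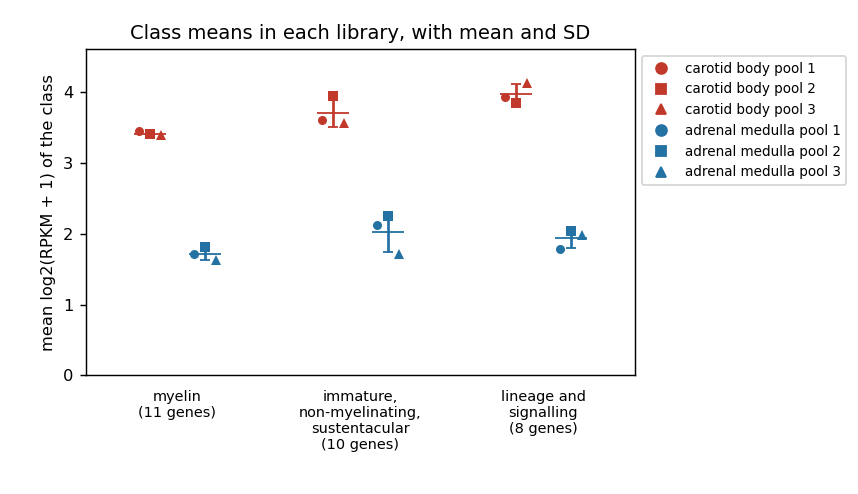
Mean log2(RPKM + 1) of the genes of each class in every library, with the mean and SD of the 3 pools of a tissue, carotid body in red left of adrenal medulla in blue. The myelin class is at 3.41 ± 0.03 for carotid bodies and 1.72 ± 0.10 for adrenal medullas, and the immature, non-myelinating or sustentacular class at 3.71 ± 0.21 for carotid bodies and 2.03 ± 0.28 for adrenal medullas.

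Setting each gene against Sox10 of the same library gave ratios that differed between the tissues for part of the glial genes. Relative to Sox10, the adrenal medulla was higher in all 3 pools for 13 of 28 genes, the carotid body for 1, Pllp, and the pools overlapped for 14. Of the other 13356 genes tested, 94.3% were higher in the adrenal medulla by this measure and 1.06% in the carotid body, since Sox10 itself differs so much. S100b followed Sox10 closely, at 5.93 ± 0.840 times its RPKM in the carotid body and 6.50 ± 1.31 times in the adrenal medulla (SD over 3 pools each). Mbp was at 3.15 ± 1.13 times Sox10 in the carotid body and 4.40 ± 1.06 times in the adrenal medulla, and Lgi4 at 2.46 ± 0.790 times in the carotid body and 1.79 ± 0.566 times in the adrenal medulla, with overlapping pools. Pmp22 was at 8.96 ± 2.89 times Sox10 in the carotid body and 34.7 ± 3.13 times in the adrenal medulla, without overlap. Cnp, Gjc3, Gfap, Ngfr, L1cam, Nes, Matn2, Fabp7, Cryab, Drp2, Erbb3 and Nrg1 lay on the same side as Pmp22. Nrg1 had the largest ratio between the tissue means of these 13, at 0.0559 ± 0.00321 times Sox10 in the carotid body and 0.758 ± 0.142 times in the adrenal medulla.

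On the opposite side, Pllp was at 0.189, 0.278 and 0.187 times Sox10 in the carotid body and at 0.0776, 0.0177 and 0.0631 times in the adrenal medulla. Within the myelin class, only Pllp had the higher ratio in the carotid body, with 9 reads over the adrenal medulla libraries. The pools overlapped for Mbp, Mal, Prx, Mag, Cldn19 and Egr2. Pmp22, Cnp, Gjc3 and Drp2 had the higher ratio in the adrenal medulla, as had 94.3% of all genes tested. Drp2 came close to overlap, at 0.127 in carotid body pool 1 and 0.134 in adrenal medulla pool 2. These ratios have no test of their own.

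**Figure D4:**
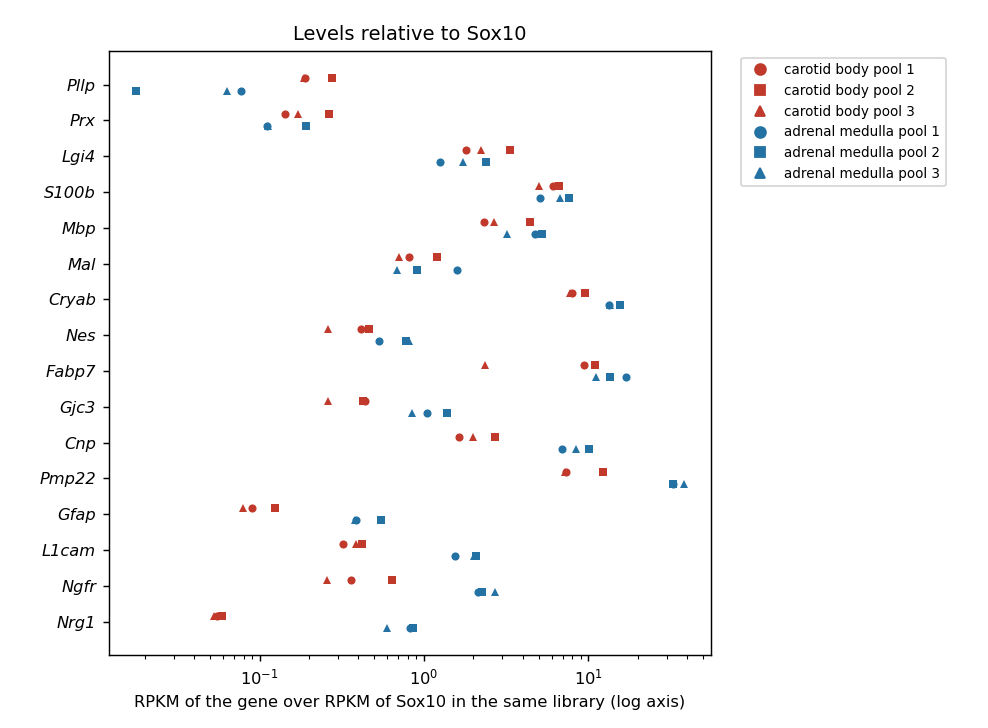
RPKM of 16 genes over the RPKM of Sox10 in the same library, on a log axis, with a point per library, carotid body in red above adrenal medulla in blue. Pllp is higher relative to Sox10 in the carotid body, S100b and Mbp overlap, and Pmp22, Gfap, L1cam, Ngfr and Nrg1 are higher in the adrenal medulla.

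A test of the same question set every gene against the mean log2(RPKM + 1) of Sox10, S100b and Erbb3 in its library. This mean differed by 2.17 between carotid body and adrenal medulla, less than Sox10 and S100b alone because Erbb3 was so low. Of the 25 other genes tested, 1 rose above the lineage mean, 10 fell below it and 14 were not called, against 1.25% of all genes above and 93.3% below. Lgi4 was the gene above, by 1.44 (limma adjusted p = 7.81e-04), and it was at 0.63 against Sox10 alone (adjusted p = 0.118). Nrg1 (-2.32), Gfap (-1.41), Ngfr (-1.39) and L1cam (-1.18) were below, and kept that call under every alternative run. Cldn19, Egr2, Drp2 and Erbb2 were also below, by -1.18, -1.12, -0.94 and -0.85, but these low genes lost the call at a pseudocount of 0.1 and by limma-voom. There Cldn19 was at 0.20 and 1.73, Drp2 at -0.14 and 0.07, and Erbb2 at -0.01 and 0.19. Pmp22 (-0.69, adjusted p = 0.0427) and Cnp (-0.75, adjusted p = 0.0321) lost the call when certain single pools were left out, with differences of -0.59 to -0.75 for Pmp22 and -0.61 to -0.81 for Cnp in those fits. Pmp22 also lost it under quantile scaling (-0.56, adjusted p = 0.0944). For Pmp22 these were carotid body pool 1 (adjusted p = 0.121) or 3 (0.157) and adrenal medulla pool 1 (0.112), 2 (0.0814) or 3 (0.0745). For Cnp they were carotid body pool 1 (adjusted p = 0.115) or 3 (0.0842) and adrenal medulla pool 1 (0.0565) or 2 (0.143). Of the myelin class 5 of 10 were below and 5 not called, and of the immature, non-myelinating or sustentacular class 3 of 10 were below and 7 not called. The myelin count includes Cldn19, Egr2 and Drp2, which lost the call at a pseudocount of 0.1 and by limma-voom. The count of the other class is made of Gfap, Ngfr and L1cam, which kept it. Which class had more genes below thus depended on the scale. Against Sox10 alone, 0 of the 25 were above and 17 below. Sox10 alone differed by 2.98, more than the lineage mean, which by itself puts more genes below. The share of all genes below Sox10 in this fit is not given here.

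Promoter windows of the genes were searched for letters that SOX and EGR factors are known to prefer, since both factors steer this programme. The RefSeq table of build GRCm38.p6 gave 31 windows of 250 bases before a transcript start for 20 of the 29 genes, and it is a later build than the one used for the reads. The SOX letters ACAAAG, on either strand, lay in windows of Cnp, Mag and Sox2, or 4 of 31 windows, against 16.5% of all 32817 windows. The 2 Mag windows with a match overlap, and their matches are the same site, counted once in each. In 1 of these 2 and in the Sox2 window, the bases that follow did not open a GENCODE M21 transcript of the gene. The SOX letters ACAATG lay in 0 of 31, against 10.7% of all. The EGR letters GCGNGGGCG lay in the window of Scn7a, or 1 of 31, against 4.70% of all. Windows of Cnp, Mag and Scn7a are printed to show where the matches lie, with that of Pllp, the 1 gene higher relative to Sox10 in the carotid body, which held no match. Each is printed 5′ to 3′ on the strand of its gene, with the matching letters in capitals and the transcript start just after the last base.
Cnp, chr11:100574689-100574938, plus strand: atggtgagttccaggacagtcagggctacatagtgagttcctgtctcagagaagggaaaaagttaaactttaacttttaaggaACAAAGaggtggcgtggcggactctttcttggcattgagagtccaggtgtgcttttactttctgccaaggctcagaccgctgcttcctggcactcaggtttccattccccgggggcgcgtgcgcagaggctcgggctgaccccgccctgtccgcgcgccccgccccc
Mag, chr7:30914864-30915113, minus strand: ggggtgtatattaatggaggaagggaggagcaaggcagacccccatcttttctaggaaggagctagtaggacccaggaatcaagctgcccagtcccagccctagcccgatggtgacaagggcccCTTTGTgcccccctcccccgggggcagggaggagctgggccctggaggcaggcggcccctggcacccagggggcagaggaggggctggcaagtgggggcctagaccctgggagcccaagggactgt
Scn7a, chr2:66784911-66785160, minus strand: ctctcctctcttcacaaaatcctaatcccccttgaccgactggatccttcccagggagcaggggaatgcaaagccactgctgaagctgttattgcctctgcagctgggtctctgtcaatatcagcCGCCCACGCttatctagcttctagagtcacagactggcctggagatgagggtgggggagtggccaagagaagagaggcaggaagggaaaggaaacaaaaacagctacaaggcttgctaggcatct
Pllp, chr8:94696243-94696492, minus strand: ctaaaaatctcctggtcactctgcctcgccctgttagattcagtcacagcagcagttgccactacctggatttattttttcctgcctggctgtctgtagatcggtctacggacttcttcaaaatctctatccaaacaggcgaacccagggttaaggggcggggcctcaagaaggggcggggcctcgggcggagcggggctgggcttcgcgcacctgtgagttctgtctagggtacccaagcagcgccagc
The match in Mag and that in Scn7a are on the strand opposite to the gene and so read as the reverse complement of the letters above. The Cnp match ends 161 bases before the transcript start, the Mag match 120 and the Scn7a match 116. Windows of this length leave out distant enhancers, and a match is not evidence of binding.

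Of 28 further genes tested from the glial lineage, 20 were called toward the carotid body, 0 toward the adrenal medulla and 8 in neither direction, with a median log2 difference of 1.46. Entpd2, the ecto-ATPase known from type II cells, was at 70.7, 63.7 and 77.5 RPKM in the carotid body and at 3.27, 5.46 and 4.87 RPKM in the adrenal medulla (log2 3.71 ± 0.23 SE, adjusted p = 2.09e-05). The potassium channel gene Kcna1, found in neurons and glia, differed by 4.57, the filament gene Vim, shared with fibroblasts and vessel walls, by 4.57, and Art3, a member of the ADP-ribosyltransferase family, by 3.68. Of 9 tested genes of injured or repair Schwann cells, 4 were called toward the carotid body, 1 toward the adrenal medulla and 4 in neither direction, with a median of 0.38. Gap43, a protein of growing axons that immature Schwann cells also make, differed by 5.79, Postn, a matrix protein, by 2.63, the growth factor gene Gdnf by 2.21 and the stress factor Atf3 by 1.21. Runx2 was the gene higher in the adrenal medulla (-1.18); the list held 0 such genes with carotid body pool 3 left out and 2 with adrenal medulla pool 3 left out. For the receivers of Dhh, 3 of 8 tested hedgehog genes were called toward the carotid body and 5 in neither direction, and 1 was called without adrenal medulla pool 2. The pathway target Gli1 averaged 3.28 ± 0.683 RPKM in the carotid body and 0.133 ± 0.0454 RPKM in the adrenal medulla (log2 1.91 with an adjusted p of 1.10e-04), the co-receptor Gas1 differed by 1.15 and Gli3 by 0.79. Among 5 tested relatives and receptors of Lgi4, the receptor genes Adam23 (2.03) and Adam11 (1.31) were higher in the carotid body, the ligand Lgi3 (-2.42) was lower there and 2 had no call.

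Markers of other cells moved with the tissues too, and their part in the values of the 29 genes was not tested. All 8 fibroblast markers were higher in the carotid body, with a summed level of 2230 to 2817 RPKM there and 68.1 to 177 RPKM in the adrenal medulla. Of 8 smooth muscle and pericyte markers, 7 were higher in the carotid body, with 2510 to 3035 RPKM there and 98.4 to 102 RPKM in the adrenal medulla, and 5 of 8 endothelial markers were higher, with 385 to 469 RPKM in the carotid body and 133 to 187 RPKM in the adrenal medulla. Of 5 perineurium markers 3 were higher and 1 lower in the carotid body, and 0 lower with carotid body pool 1 left out. Their sum was 93.6 to 131 RPKM in the carotid body and 13.8 to 15.9 RPKM in the adrenal medulla. All 8 markers of adrenal cortex had their higher level in the adrenal medulla, at 29.9 to 116 RPKM in the carotid body and 9043 to 12278 RPKM in the adrenal medulla, and of 8 catecholamine cell markers 5 were higher there and 1, Ddc, higher in the carotid body, with sums of 2303 to 3159 RPKM in the carotid body and 13004 to 24790 RPKM in the adrenal medulla. Of 12 neuron and axon markers 3 were higher in the carotid body and 9 not called, with a median of 0.27 and with 730 to 956 RPKM in the carotid body and 588 to 887 RPKM in the adrenal medulla. With adrenal medulla pool 2 left out, 1 was called toward the carotid body. Toward the adrenal medulla, 3 were called with adrenal medulla pool 3 left out, 2 with carotid body 2 also left out, and 1 under median-ratio or quantile scaling. Of 8 skeletal muscle markers, a tissue that shares Cryab, 4 were tested and 2 higher in the carotid body, summing to 22.9 to 31.7 RPKM in the carotid body and 15.2 to 24.6 RPKM in the adrenal medulla.

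Several defining genes of other glial, SOX10-bearing or myelin-making cells were low, while others of the same lists were not. The oligodendrocyte genes Mog, Mobp, Olig2, Ermn, Gpr17 and Opalin were each at an average of 0 to 0.221 RPKM in the carotid body and 0 to 0.109 RPKM in the adrenal medulla, with Opalin at 0 reads in every library. Aspa and Cldn11 of the same list were higher, at 40.3 and 18.4 RPKM on average in the carotid body and 4.59 and 19.5 RPKM in the adrenal medulla. Of the 8 genes of this list 2 were tested, and 1 was called, toward the carotid body. The 6 melanocyte markers summed to 8.63 to 11.9 RPKM in the carotid body and 5.55 to 7.88 RPKM in the adrenal medulla, with 0 of 3 tested called. Of the astrocyte markers Aqp4 and Slc1a2 averaged 0.166 and 0.357 RPKM in the carotid body and 0.0805 and 0.133 RPKM in the adrenal medulla, while Gja1 and Aldh1l1, both genes of many tissues, were higher in the adrenal medulla. The 5 astrocyte markers summed to 7.29 to 19.5 RPKM in the carotid body and 57.1 to 115 RPKM in the adrenal medulla. Of these, 2 were tested and 2 called toward the adrenal medulla.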

How the data were processed

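RNA of 3 carotid body pools and 3 adrenal medulla pools was amplified before library construction, per the labels' protocols. Reads were processed with Bowtie 0.9.8 and mm9, per the submitters' processing notes. The authors deposited RPKM values for 23511 entries with an mRNA length. The other 3217 entries hold whole numbers without a length and were left out. RPKM times length gave whole reads, within 0.01, for 106276 of 106276 values above 0, and thus the depth. Counting error alone is covered by these reads, since no molecular identifiers were used.

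Tissues were compared by limma (version 3.58.1, under R 4.3.3), fitted to log2(RPKM + 1) without a block and with the variance allowed to follow mean level, over the 13357 genes at 1 RPKM or more in at least 3 libraries, two-sided, with Benjamini-Hochberg adjustment over all of them. P-values measure the spread between these pools. Same-numbered pools deviated together, with correlations of 0.259, 0.128 and 0.473 for numbers 1, 2 and 3, though carotid body 2 and adrenal medulla 1 also gave 0.291, and the submitters describe both organs of a sample as coming from 10 mice, so the pool number was also fitted as a block. The fit was also run on simulated reads, in which only genes of many reads were changed and every gene had the same dispersion. That run says nothing on genes of few reads or on the real spread between these pools. Alternatives were another pseudocount, no filter, median-ratio and quantile scaling, limma-voom on recovered reads, the block, each library left out with the same filtered genes kept, carotid body pool 2 and adrenal medulla pool 3 left out, and other lineage genes.

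Gene lists and members were chosen with earlier results of these data known. All 29 members are named whatever their values, and some results on other genes are not reported here. From each further list up to 4 called genes with the largest absolute difference are named, from marker lists those with the highest level, and Runx2, Ddc and low defining markers were named after their values were seen. Symbols come from the deposited table, and accessions of 29 of 29 members were in the GRCm38.p6 RefSeq gene table, used for overlapping genes. In 24 of 31 promoter windows the following bases opened a GENCODE M21 transcript of the gene, and those printed are among these. Python 3.11.15, pandas 2.3.3, numpy 2.4.6 and matplotlib 3.10.9 served for tables and plots.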

Additional observations from a re-analysis of the deposited data

How the results depend on the processing

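Of the 27 tested glial genes, 25 kept their direction and their side of the threshold in all 13 alternatives of the tissue comparison; Ngfr and L1cam did not. The count higher in the carotid body was 24 to 26 without 1 library, 25 with both carotid body 2 and adrenal medulla 3 left out, and 26 with the pool number as a block, which changed no call of a tested member and, of the list counts, moved the genes higher in the carotid body to 6, against 3, for nodes and axon contact and to 3, against 2, for Lgi ligands and Adam receptors. Ngfr also lost its call with no filter (adjusted p = 0.0564), under median-ratio scaling (0.0523) or quantile scaling (0.0691), and with both carotid body 2 and adrenal medulla 3 left out (0.0519). Low genes depended on the pseudocount. The median log2 difference of the myelin class was 2.56 at a pseudocount of 0.1, 2.85 by limma-voom and 1.49 to 1.63 without 1 library, and that of the immature, non-myelinating or sustentacular class 2.43, 2.47 and 1.52 to 2.03, or 1.33 with both carotid body 2 and adrenal medulla 3 left out. The difference between these medians was 0.14 at the lower pseudocount, 0.38 by limma-voom, 0.18 without both pools and -0.41 to -0.02 without 1 library.

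Genes above and below the lineage mean numbered 2 and 6 at a pseudocount of 0.1 and likewise 2 and 6 by limma-voom, with Cldn19 at 0.20 and 1.73, Drp2 at 0.071 and Erbb2 at 0.19 by limma-voom. The genes above were 3 under quantile scaling, and 1 to 3 without 1 library, with 8 to 11 below. With both carotid body 2 and adrenal medulla 3 left out there were 15 below. Against Sox10 alone there were 0 above and 17 below, and against Sox10 and S100b, a choice made after Erbb3 was seen to be low, 0 and 19. Sox10 and S100b differ between the tissues by more than the lineage mean, which by itself puts more genes below. Shares of all genes are not given for these alternatives, so the counts are no result about glial genes. Over all genes, those higher in the adrenal medulla numbered 692 to 1464 without 1 library and 2067 with both carotid body 2 and adrenal medulla 3 left out, against 1033. The cause of these shifts was not tested.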
